A study of Mus musculus with 4 samples.

Results

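Solute carriers are the membrane proteins that move sugars, amino acids, ions, metals, nucleotides and metabolites into cells and between their compartments, and their gene names begin with Slc and a family number. On the mouse expression array used here, 185 probe sets had a single gene symbol that begins with Slc followed by a digit. They stood for 151 genes of 40 families, out of 8251 genes with a named probe set in the table. The rule works on names, so it also takes 3 genes whose products carry nothing: Slc9a3r1 and Slc9a3r2, scaffold proteins that bind a sodium-proton exchanger, and Slc4a1ap, an adaptor of the anion exchanger. It leaves out 1 probe set with several symbols, and the transporters whose symbols begin with Slco or that have other names, such as the uncoupling proteins.

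The series holds 4 arrays, each hybridised with total RNA of 1 sample of mouse skeletal muscle. All titles carry the codes NMJ and Ctr and a time of 0 h, and code 2 of them as J (replicates 1a and 1c) and 2 as NJ (replicates 1a and 1d). The codes are used as given. The series title names the neuromuscular junction, and the comparison is J against NJ. The labels used here give no strain, genotype, age or treatment for either group. They do not tie arrays to animals either, and p-values then measure a spread that may be technical. In bulk muscle, fewer cells of a type and less RNA per cell cannot be told apart.

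Muscle fibres depend on these carriers in several ways. Glucose enters through Slc2a4, the insulin-responsive transporter known as GLUT4. Mitochondria exchange ATP for ADP through the Slc25 carriers Slc25a4 and Slc25a5 and take in phosphate through Slc25a3, fatty acids enter them as carnitine esters through Slc25a20, and creatine and taurine are taken up by Slc6a8 and Slc6a6. At the nerve terminal, acetylcholine is packed into vesicles by Slc18a3, and released choline is taken back by a carrier of the Slc5 family.

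One pair of arrays, from different groups, stood apart as most alike. J 1c and NJ 1d, whose values are rounded to 1 decimal, had a Pearson correlation of 0.91 over the Slc probe sets tested, and every other pair lay between 0.74 (J 1a and NJ 1a) and 0.79. The arrays titled 1a carry full digits. Format and label 1a cannot be told apart, so differences are also given for J 1a minus NJ 1a (the 1a pair) and for J 1c minus NJ 1d (the rounded pair), names that refer to format and not to matched animals. J 1c also had a lower top signal (41086) than the other 3 arrays (125534 to 231943). Of 8 markers of muscle fibres 7 had a probe set, among them Acta1, Myh4 and Tnnt3, and by their brightest probe sets all 7 lay in the top 10% of signals.

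Unless another scale is named, a difference is J minus NJ in quantile-normalised log2(signal + 32), followed by limma's standard error, with 2 arrays per group. Adding 32 makes the differences of dim genes look smaller than they are. Signals are the deposited values in arbitrary units, given for J 1a and J 1c, then for NJ 1a and NJ 1d.

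No Slc probe set passed the test. Of 185, 134 were bright enough to test (mean over the 4 arrays above the 25th percentile), and they stood for 116 genes. limma called 0 of them at a Benjamini-Hochberg adjusted p under 0.05, against 0 of all 9317 probe sets tested (0%), and the smallest adjusted p of an Slc probe set was 0.999. At an unadjusted p under 0.05 limma gave 2 Slc probe sets, both higher in J, or 1.49%, against 2.14% of all probe sets. With a term for the number format, limma called 0 Slc probe sets, against 8 of all probe sets (0.0859%). The smallest adjusted p of an Slc probe set was then 0.66 in limma. In that fit 2 higher and 1 lower had an unadjusted limma p under 0.05, or 2.24%, against 5.96% of all probe sets. None of the differences below is a call, and the verbs rose and fell are not used for them.

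On the normalised scale the groups did not overlap, with J higher, for 22 of the 134 Slc probe sets (16.4%), and with J lower for 18 (13.4%). The background was 13.6% of all probe sets for J higher and 12.8% for J lower, so both shares were near it. Counting each gene by its brightest probe set, 54 genes were higher in J and 62 lower, with a median difference of −0.066. Over all 6774 genes tested the median was −0.012, with 3316 higher and 3458 lower. When 1 array was dropped, the filter on dim probe sets was redone, so the genes behind a median could change. The Slc median was then 0.019 without J 1c, −0.13 without NJ 1d, −0.01 without J 1a and −0.0054 without NJ 1a. Over the same 116 genes it lay between −0.1 and 0.011. The class medians below, where 1 array was dropped, also come from the redone filter unless the same genes are named.

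The probe sets with the 2 smallest p values were those of Slc44a2, a choline transporter-like protein, and Slc12a7, a potassium-chloride cotransporter known as KCC4. Slc44a2 gave 1494 and 2179 on the J arrays and 663 and 906 on NJ. Both J signals were above both NJ signals, and the difference was 1.17 in the 1a pair and 1.11 in the rounded pair. Together it came to 1.14 ± 0.48, or 2.20-fold (limma unadjusted p = 0.040, adjusted p = 0.999), and lay between 0.88 and 1.42 when any 1 array was dropped. Slc12a7 gave 1443 and 365 on the J arrays and 192 and 158 on NJ. J 1a was the highest array, and the difference was 2.87 in the 1a pair and 0.93 in the rounded pair. Together this made 1.90 ± 0.81, or 3.73-fold (limma unadjusted p = 0.043, adjusted p = 0.999), and 1.03 without J 1a.

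Their upstream sequences are shown because muscle genes transcribed at the synapse are known for a short promoter element, the N-box, and the series is named for the neuromuscular junction. That of Slc25a4 is added as the gene of the carrier probe set with the highest signals. Sequences come from RefSeq's gene starts on GRCm38.p6 and run 5′ to 3′ on the gene's strand over the 250 bases before a start. Capitals mark the N-box (CCGGAA, or TTCCGG for the other strand; a TTCCGGAA holds both) and the E-box (CANNTG, the same on both strands), the element bound by myogenic factors.
Slc44a2, chr9:21320469-21320718, plus strand: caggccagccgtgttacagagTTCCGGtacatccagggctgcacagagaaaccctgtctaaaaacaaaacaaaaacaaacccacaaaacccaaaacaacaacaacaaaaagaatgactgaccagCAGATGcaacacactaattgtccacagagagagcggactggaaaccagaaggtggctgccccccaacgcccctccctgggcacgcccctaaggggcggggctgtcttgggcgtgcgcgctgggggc
Slc44a2, inner start, chr9:21337578-21337827, plus strand: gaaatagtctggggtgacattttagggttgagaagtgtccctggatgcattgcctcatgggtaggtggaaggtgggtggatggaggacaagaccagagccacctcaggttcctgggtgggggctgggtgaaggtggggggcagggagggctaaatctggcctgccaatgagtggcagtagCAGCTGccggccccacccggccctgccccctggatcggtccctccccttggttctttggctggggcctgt
Slc12a7, chr13:73763410-73763659, plus strand: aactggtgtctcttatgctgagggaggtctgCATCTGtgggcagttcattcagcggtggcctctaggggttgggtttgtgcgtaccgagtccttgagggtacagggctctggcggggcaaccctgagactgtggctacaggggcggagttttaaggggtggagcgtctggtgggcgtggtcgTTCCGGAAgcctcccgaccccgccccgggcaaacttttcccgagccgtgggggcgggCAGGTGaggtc
Slc25a4, chr8:46211063-46211312, minus strand: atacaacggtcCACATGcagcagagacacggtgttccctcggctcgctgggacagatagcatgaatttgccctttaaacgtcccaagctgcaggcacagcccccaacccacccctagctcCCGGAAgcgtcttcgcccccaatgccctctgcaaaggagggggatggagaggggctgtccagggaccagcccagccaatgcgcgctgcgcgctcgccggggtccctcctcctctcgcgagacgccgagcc

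The outer start of Slc44a2, the start of Slc12a7 and the start of Slc25a4 each had 1 N-box, and the inner start of Slc44a2 had 0. Slc12a7 has a further listed start close by, whose window overlaps the one shown. Of the 151 Slc genes, 124 had 1 or more starts in the RefSeq table, 175 in all. An N-box lay in 30 of these 175 windows (17.1%), against 12% of 32851 windows of all genes. An E-box lay in 65.7% of the Slc windows and 66.2% of all. A match describes the letters only.

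**Figure D1:**
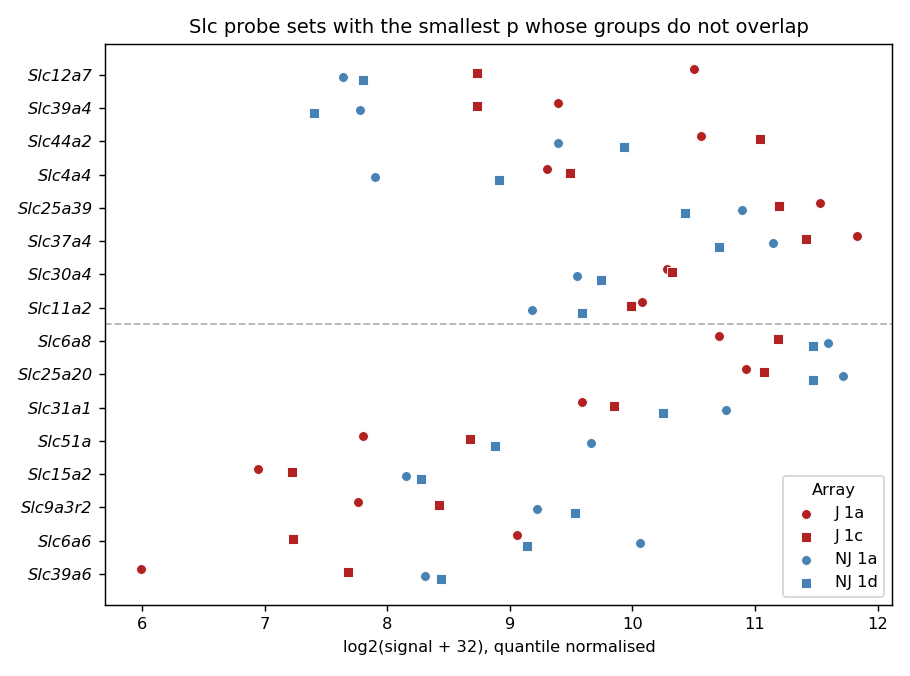
Normalised values, log2(signal + 32), of the 16 Slc probe sets with the smallest limma p whose groups do not overlap, 8 in each direction, with 1 point for each array (red J, blue NJ, circles 1a, squares 1c or 1d; small vertical offsets keep points visible). For Slc44a2 both J points lie to the right of both NJ points (1494 and 2179 against 663 and 906 in signal), while for Slc12a7 the J 1a point stands apart.

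In the same direction, 6 further genes were taken by rank of p among probe sets whose groups do not overlap. Slc37a4, which brings glucose 6-phosphate into the endoplasmic reticulum, gave 3430 and 2852 on the J arrays and 2196 and 1633 on NJ, a difference of 0.70 ± 0.40. Slc25a39, the mitochondrial glutathione carrier, had 2785 and 2421 against 1806 and 1306 (0.71 ± 0.41). These are alike in the formats too, at 0.68 and 0.71 for Slc37a4 and 0.64 and 0.77 for Slc25a39. Slc30a4, a zinc exporter, gave 1238 and 1282 on the J arrays and 743 and 781 on NJ, a difference of 0.65 ± 0.48, while its dimmer probe set overlapped (0.08 ± 0.85). Slc4a4, the sodium-bicarbonate cotransporter, had 646 and 671 against 238 and 397 (0.99 ± 0.70).

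The last pair of the 6 rest on the dimmer probe set of the gene. Slc39a4, a zinc importer, gave 680 and 364 on the J arrays and 214 and 113 on NJ there, a difference of 1.46 ± 0.77. At its brighter probe set it had 2092 and 6639 against 2902 and 4588, which overlap (0.08 ± 0.52, and −0.03 with median centring). Slc11a2, a carrier of iron and other divalent metals, had 1067 and 987 against 575 and 692 (0.65 ± 0.53) and −0.13 ± 0.47 at its brighter probe set.

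In the other direction, Slc39a6, a zinc importer, gave 41.7 and 155 on the J arrays and 320 and 268 on NJ. J 1a was the lowest, and the difference was −1.53 ± 0.85, or −0.69 without J 1a. Slc15a2, a peptide transporter, gave 110 and 104 on the J arrays and 286 and 234 on NJ, a difference of −1.13 ± 0.76 that was alike in the formats, at −1.21 and −1.05. Slc9a3r2, 1 of the scaffold proteins, had 218 and 281 against 588 and 659 (−1.28 ± 0.71), again alike at −1.45 and −1.11. Slc51a, a subunit of an organic solute transporter, had 226 and 350 against 800 and 386 (−1.03 ± 0.74), or −0.61 without J 1a and −0.66 without NJ 1a.

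The remaining 4 were carriers with a known part in muscle metabolism or copper uptake. Slc6a8, the creatine transporter, gave 1646 and 2412 on the J arrays and 2989 and 2891 on NJ, a difference of −0.58 ± 0.39. Slc25a20, the carnitine-acylcarnitine carrier, had 1884 and 2222 against 3290 and 2877 (−0.60 ± 0.38). Both carriers had close values on the NJ arrays and lower ones on both J arrays. Slc6a6, the taurine transporter, had 555 and 104 against 1040 and 486 at a dimmer probe set (−1.45 ± 0.82), which overlap as deposited but not after normalisation, and 3891 and 5292 against 4399 and 3929 at its brighter one (0.16 ± 0.36). Slc31a1, the copper importer, had 771 and 893 against 1657 and 1148 at a dimmer probe set (−0.78 ± 0.48) and 0.17 ± 0.40 at its brighter one. Each adjusted p in these paragraphs was 0.999 in limma.

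The Slc probe sets with the highest signals included carriers of ATP, glucose, creatine, taurine and acylcarnitine. There were 11, of 11 genes, in the top 10% of all probe sets, which is 5.95% of the Slc probe sets. Probe sets differ in how brightly they report the same amount of RNA, so this is an order of signals and not of transcripts. Of these 11, 3 had groups that did not overlap on the normalised scale with J higher (27.3%) and 2 with J lower (18.2%). The shares were 12.1% and 11.8% of the 1243 bright probe sets of all genes.

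Slc25a4, which exchanges ATP for ADP across the inner mitochondrial membrane in heart and muscle, gave 106614 and 31560 on the J arrays and 75722 and 66740 on NJ. As deposited, J 1a was the highest and J 1c the lowest, so the groups overlap. Its difference depended on the scale: 0.32 ± 0.52 after quantile normalisation, but −0.29 on the scale of the deposited values and −0.35 with median centring. After quantile normalisation J 1c was the highest array, and the difference was 0.06 without J 1c and 0.47 without J 1a. Slc25a11, the oxoglutarate-malate carrier, gave 10864 and 5666 on the J arrays and 11046 and 10213 on NJ. Only J 1c was low, and the difference of −0.32 ± 0.43 was 0.21 without J 1c.

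Slc2a4, the insulin-responsive glucose transporter, gave 4019 and 3425 on the J arrays and 4597 and 4670 on NJ. Both J signals were lower as deposited, but the normalised values overlapped, with a difference of −0.26 ± 0.36. Slc12a2, the sodium-potassium-chloride cotransporter known as NKCC1, had 3113 and 8206 against 5548 and 7769 (−0.28 ± 0.47). J 1a was its lowest array, and the difference was 0.39 without it. Slc35b1, a carrier of the endoplasmic reticulum, had 3933 and 5331 against 2961 and 4464 (0.39 ± 0.37). Its groups overlap as deposited and were barely apart after normalisation, at 12.06 on J 1a and 12.04 on NJ 1d.

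Slc30a3, a zinc transporter best known from synaptic vesicles of neurons, gave 3260 and 4295 on the J arrays and 2640 and 3248 on NJ (0.36 ± 0.36). Its other probe set had only 18.3 and 128 against 17.6 and 67.5, at percentile 6.91 of all probe sets, and was not tested, while the first lay at percentile 93.8.

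**Figure D2:**
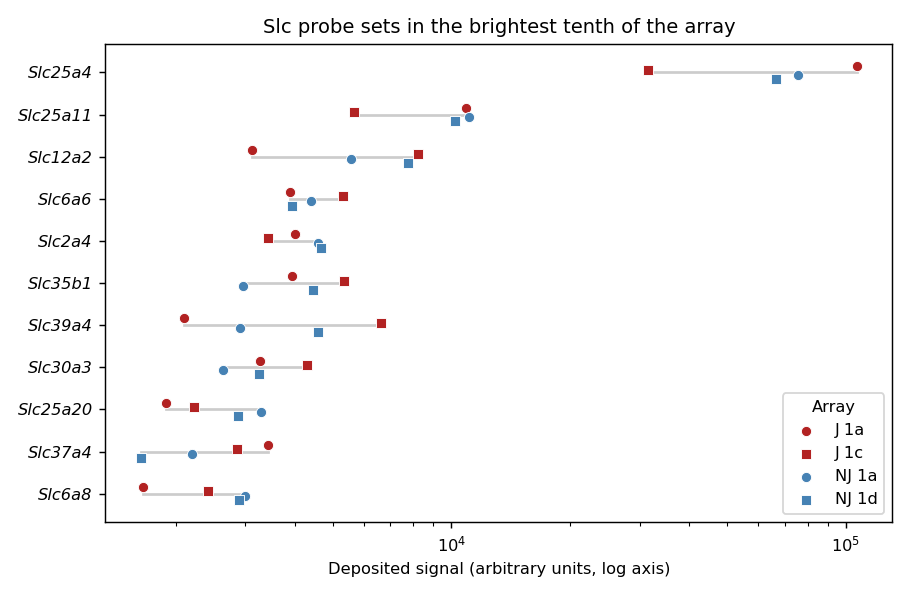
Deposited signals on a log axis of the 11 Slc probe sets in the top 10% of the array, with 1 point for each array (red J, blue NJ, circles 1a, squares 1c or 1d) and a grey line over their range. Slc25a4 spans 31560 on J 1c to 106614 on J 1a, and the points of Slc2a4 lie close together, from 3425 to 4670.

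The mitochondrial Slc25 carriers were the largest family on the array. Of 20 genes 18 were tested, 7 of them higher in J and 11 lower, around a median of −0.24. The median was −0.15 in the 1a pair and 0.06 in the rounded pair. With the filter redone, it was −0.03 without NJ 1a and −0.38 without NJ 1d. Over the same 18 genes it lay between −0.23 and −0.03 when 1 array was dropped. Slc25a14 and Slc25a48 were too dim to test.

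Slc25a3, the phosphate carrier, gave 723 and 755 on the J arrays and 502 and 581 on NJ. The groups did not overlap, and the difference was 0.38 ± 0.58. Slc25a5, the partner of Slc25a4 found in most tissues, had 921 and 509 against 698 and 615 at its brightest probe set (0.06 ± 0.58; −0.31 without J 1a). That probe set ends in _f_at, the array maker's mark for sequence shared by several transcripts, and Slc25a5 has close relatives among the Slc25 genes. A dimmer one had 570 and 285 against 41.6 and 468, which gave 3.10 in the 1a pair and −0.66 in the rounded pair.

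Of the carriers of small metabolites, Slc25a1, which exports citrate, gave 919 and 850 on the J arrays and 1211 and 844 on NJ (−0.24 ± 0.49). Slc25a10, the dicarboxylate carrier, differed by 0.38 ± 0.76 and Slc25a15, the ornithine carrier, by −0.27 ± 0.50. Slc25a17, a peroxisomal member of the family, had 340 and 1462 against 728 and 1077 (−0.42 ± 0.74), and 0.67 without J 1a. Slc25a44, a carrier of branched-chain amino acids, had the lowest difference of the family, −0.86 ± 0.82, and Slc25a39, above, the highest.

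Sugar carriers had 8 genes, of which 6 were tested, 2 higher and 4 lower in J, around a median of −0.40. With the filter redone, the median was −0.16 without J 1a, −0.11 without NJ 1a, −0.07 without J 1c and −0.28 without NJ 1d. Over the same 6 genes it lay between −0.38 and −0.11 when 1 array was dropped. It was −0.03 with no filter on dim probe sets. Slc2a3, a glucose transporter of high affinity, gave 691 and 382 on the J arrays and 604 and 217 on NJ (0.39 ± 0.72; −0.14 without NJ 1d). Slc2a8 had 757 and 908 against 1316 and 1042, which do not overlap (−0.54 ± 0.49). Its other probe set, too dim to test at percentile 6.9, had 64 and 79.8 against 59.1 and 12.7. These do not overlap either, and they go the other way (0.64). Slc2a1, the widespread glucose transporter GLUT1, was too dim to test, with 109 and 66.4 against 50.7 and 83.7.

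Monocarboxylate and fatty acid carriers had 8 genes, 4 of them tested, 1 higher and 3 lower, with a median of −0.36. It was −0.76 without J 1a, 0.13 without J 1c, 0.02 without NJ 1d, −0.06 with no filter and −0.03 with the filter at the median. Slc16a1, the lactate transporter MCT1, gave 359 and 146 on the J arrays and 65.1 and 250 on NJ, and J 1a and NJ 1a lay at the ends (0.64 ± 0.90; −0.33 without NJ 1a). Slc27a1, a fatty acid transport protein of muscle and fat, had 285 and 95.7 against 327 and 263. J 1c was the lowest, and the difference was −0.75 ± 0.79. Slc27a4, of the same family, had 173 and 90.8 against 172 and 272 (−0.69 ± 0.79), with groups that overlap as deposited but not after normalisation, or −0.0045 in the 1a pair and −1.38 in the rounded pair. Slc22a5, which takes up carnitine, is named with the organic ion carriers. It gave 392 and 275 on the J arrays and 326 and 65.8 on NJ (0.87 ± 0.83), chiefly through NJ 1d.

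Amino acid carriers had 21 genes, of which 14 were tested, 8 higher and 6 lower, around a median of 0.20. It was 0.12 without NJ 1a, 0.03 without J 1c and 0.13 with no filter. Slc7a5 and Slc3a2 form the heteromeric carrier of large neutral amino acids. Slc7a5, its light chain, gave 819 and 1074 on the J arrays and 227 and 1132 on NJ, with NJ 1a alone low (0.85 ± 0.79; −0.35 without NJ 1a). Slc3a2, its heavy chain, had 1741 and 1347 against 1439 and 760 (0.46 ± 0.48). Slc1a5, a glutamine transporter, had 177 and 186 against 428 and 84.9 (−0.21 ± 0.85; 0.59 without NJ 1a), and Slc38a2, a further glutamine transporter, had 770 and 1524 against 895 and 852 (0.24 ± 0.53; −0.24 without J 1c).

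In the Slc6 family, 10 of 11 genes were tested, 5 higher and 5 lower, around a median of −0.0095 (0.13 without J 1a). Besides the creatine and taurine transporters, it holds transmitter carriers that are known from neurons. Slc6a2, the noradrenaline transporter, gave 462 and 298 on the J arrays and 367 and 804 on NJ at its brighter probe set (−0.50 ± 0.73; 0.14 without NJ 1d) and 523 and 204 against 238 and 198 at the other (0.51 ± 0.78). Slc6a4, the serotonin transporter, gave opposite differences in the formats, −2.71 in the 1a pair and 2.37 in the rounded pair, at a probe set that ends in _f_at. Slc18a3, the vesicular acetylcholine transporter of motor terminals, gave 63.3 and 73.1 on the J arrays and 113 and 30.1 on NJ and was too dim to test, as were Slc32a1, the vesicular carrier of inhibitory transmitters, and Slc17a1, an organic anion carrier.

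Ion carriers had 20 genes, of which 14 were tested, 6 higher and 8 lower, around a median of −0.07. It was 0.13 without J 1c, 0.10 without NJ 1a and −0.20 without NJ 1d. Slc4a3, an anion exchanger of excitable tissue, gave 1156 and 1348 on the J arrays and 758 and 1008 on NJ, which do not overlap (0.46 ± 0.48). Slc8a1, the sodium-calcium exchanger NCX1, had 73.3 and 1475 against 992 and 866. Only J 1a was low, and the difference of −1.42 ± 1.10 was 0.59 without it, with −0.08 ± 0.90 at its other tested probe set. Slc20a1, a phosphate transporter, differed by −0.22 ± 0.78, and by 0.43 without J 1a.

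Slc4a1, the anion exchanger of red blood cells, gave 801 and 248 on the J arrays and 245 and 504 on NJ (0.39 ± 0.81). It was high on J 1a, and the difference was −0.32 without that array and −0.25 without NJ 1a. Of 6 genes listed as red cell markers 4 had a probe set, and their summed signal ranged from 32354 to 47515 in J and from 42394 to 43469 in NJ. Most of this sum came from Hba-a1 and Ank1, and whether muscle fibres supplied part of it was not tested. Hba-a1, a haemoglobin chain, had 40486 and 16397 against 29770 and 28704. Alas2 and the dim Epb42 were also highest on J 1a. Ank1 had 5854 and 15515 against 13179 and 13271 at its brightest probe set, so it was lowest on J 1a and highest on J 1c. The sum thus joins markers with opposite orders of the J arrays. The part of blood in Slc4a1 was not tested.

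Metal carriers had 16 genes, of which 15 were tested, 7 higher and 8 lower, around a median of −0.01. It was positive without NJ 1a (0.14) or J 1c (0.06) and negative without J 1a (−0.20) or NJ 1d (−0.17). By brightest probe set, the zinc importers of the Slc39 family ranged from Slc39a6 at −1.53 to Slc39a8 at 0.86 ± 0.81, the latter with 427 and 129 in J against 148 and 84.0 in NJ. Slc30a1, a zinc exporter, had 515 and 196 against 557 and 255 (−0.29 ± 0.77; 0.19 without J 1c).

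Nucleoside and nucleotide-sugar carriers had the highest class median, 0.39 over 11 of 13 genes, with 7 higher and 4 lower. It was 0.55 in the 1a pair and 0.20 in the rounded pair. It was 0.08 without J 1a, 0.19 without NJ 1a and 0.68 without J 1c, and 2 genes, both higher in J, had groups that did not overlap (18.2% of the class, against 26.5% of all genes). Slc35b2, which brings the sulphate donor of the Golgi into that compartment, gave 1159 and 1017 on the J arrays and 274 and 1163 on NJ (0.93 ± 0.73). NJ 1a alone was low, and the difference was −0.17 without it. Slc29a1, an equilibrative nucleoside transporter, had 993 and 920 against 1878 and 747 (−0.39 ± 0.54; 0.25 without NJ 1a), with its other probe set at −0.26.

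Organic ion, vitamin and drug carriers had 25 genes, of which 19 were tested, 9 higher and 10 lower, around a median of −0.13. It was −0.27 without NJ 1d and 0.02 with no filter. Slc23a3, of the ascorbate transporter family, disagreed between probe sets. It gave 1447 and 723 on the J arrays and 1667 and 404 on NJ at the brighter (0.19 ± 0.68; −0.27 without J 1a and −0.71 without NJ 1d), and 293 and 487 against 826 and 528 at the other (−0.85 ± 0.68). In the Slc5 family 2 of 3 genes were tested, the sodium-coupled carriers Slc5a11 at 1.03 ± 0.85 (0.24 without J 1a) and Slc5a6 at −0.36 ± 0.85 (0.45 without NJ 1d and −1.22 without NJ 1a). Of the 3 adaptors 1 was higher and 2 lower, with a median of −0.40 that was 0.20 without J 1c and −0.99 without J 1a. Class medians carry no test. Slc25a44, Slc2a8, Slc27a4, Slc35b2, Slc5a6, Slc5a11 and Slc6a4 were singled out after their values were seen.

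**Figure D3:**
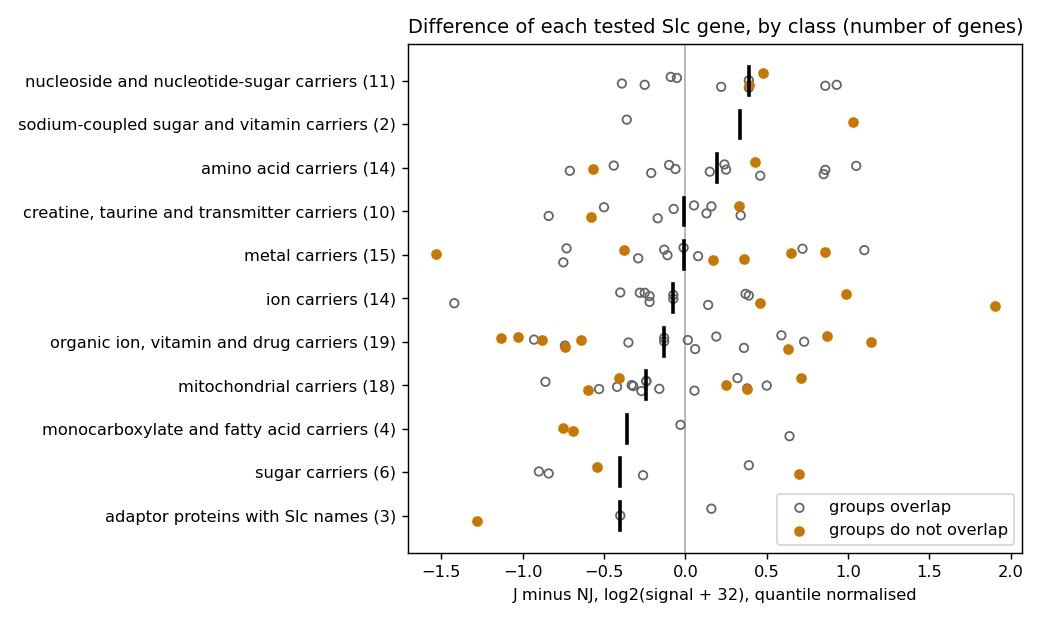
Difference J minus NJ on the log2(signal + 32) scale of the 116 tested Slc genes, each by its brightest probe set, in 11 classes (number of genes in brackets). Classes were set by family number, except that of the 3 adaptors, which was set by gene name. Filled points are genes whose groups do not overlap and black bars are class medians, which run from −0.40 to 0.39 while single genes run from −1.53 to 1.90.

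Over the Slc probe sets, the differences of the 1a pair and of the rounded pair bore no visible relation. Over the 134 tested Slc probe sets, J 1a minus NJ 1a and J 1c minus NJ 1d had the same sign in 67 (50%), against 49.3% of all probe sets, and their Pearson correlation was −0.08, given as a description over probe sets of the same 4 arrays. The difference was larger in size between the 1a arrays for 92 (68.7%), against 64.5% of all. Its median size over Slc probe sets was 0.64 there and 0.36 between J 1c and NJ 1d.

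**Figure D4:**
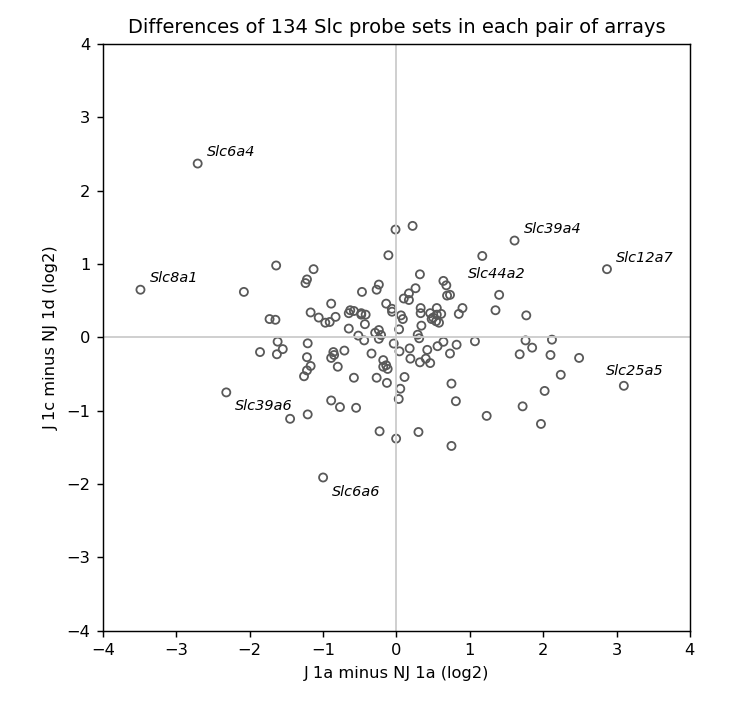
Each circle is 1 of the 134 tested Slc probe sets, with J 1a minus NJ 1a on the horizontal axis and J 1c minus NJ 1d on the vertical (log2, same scale). The cloud is wider than tall and has no slope, with Slc44a2, Slc12a7 and Slc39a4 high on both axes and Slc8a1 and Slc6a4 of opposite sign on them.

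Genes that work with the carriers were taken from a list of 40, of which 33 had a probe set and 31 were tested. limma called 0 of them, also at an unadjusted p under 0.05, with 11 higher and 20 lower and a median of −0.18. The groups did not overlap for 1 gene higher in J, Hk1, and for 7 lower in J, together 25.8% of the list against 26.5% of all genes. Akt2, the kinase that acts on GLUT4 vesicles downstream of insulin, gave 1373 and 667 on the J arrays and 1907 and 1512 on NJ (−0.82 ± 0.49), and Tbc1d1, its substrate, 1292 and 1728 against 2008 and 1958 (−0.45 ± 0.41). For both genes the groups did not overlap. Bsg, the basigin that escorts lactate transporters to the membrane, differed by 0.47 ± 0.44. Cpt2, which takes over the acylcarnitines that Slc25a20 delivers, had 2149 and 2322 against 3800 and 2747 (−0.53 ± 0.39), again without overlap. Akt2, Tbc1d1, Bsg and Cpt2 were singled out after their values were seen. Others of the list differed by 0.70 ± 0.65 (Snap23), 0.15 ± 0.42 (Stx4a), −0.00074 ± 0.52 (Vamp2) and −0.18 ± 0.61 (Stxbp3), all with overlap. Vamp3 differed by −0.72 ± 0.70 without overlap.

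Of the marker lists of other cell types, those of adipocytes and immune cells had summed signals that did not overlap between groups. The 4 of 6 adipocyte markers with a probe set summed to 2346 to 2676 in J and 1598 to 2174 in NJ. Members of this list went opposite ways without overlap. Adipoq had 1295 and 1132 on the J arrays against 335 and 246 on NJ, and Fabp4 1215 and 1104 against 1747 and 1252. The 6 immune markers summed to 2433 to 2438 in J and 2697 to 3027 in NJ. Of the 4 immune genes tested, 2 were higher and 2 lower in J, all with groups that overlap. Among all single genes tested, 26.5% had groups that did not overlap. The summed signals of axons, Schwann cells, endothelium, fibroblasts, smooth muscle and red cells overlapped, and no marker was listed at 0. By gene, all 6 of smooth muscle and pericytes were higher in J (median 0.54, or −0.21 to 1.21 when 1 array was dropped). All 4 of Schwann cells were lower (median −0.40, or −0.77 to −0.16). The groups did not overlap for 1 gene of each of these lists (16.7% and 25%). The other lists had genes in both directions. The part of these cell types in the Slc differences was not tested.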

How the data were processed

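The deposited values are linear intensities, 1 for each probe set on each array. The authors' software is not given in the sources used here, and the arrays' means after trimming 2% at each end are nearly equal (800.5 to 800.6). Of 12488 probe sets, the 66 controls entered the normalisation but not the tests. Names come from the platform's gene table, in which 10833 probe sets had 1 symbol, 396 several and 1193 were not listed. All 151 Slc symbols were found in RefSeq (GRCm38.p6).

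Intensities were taken as log2(value + 32) and quantile normalised. All probe sets above the 25th percentile of the mean were fitted in R 4.3.3 by limma 3.58.1 (lmFit and moderated variances with an intensity trend), leaving 2 residual degrees of freedom. The Benjamini-Hochberg adjustment ran over all 9317 p-values. With 2 arrays against 2, the smallest two-sided p of an exact permutation test is 0.333, and the number of arrays limits the precision. The script was tested on simulated data.

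The members, classes and lists were chosen with earlier results of these data known. Named are 31 of 41 Slc genes of a list with a probe set, up to 8 per direction by smallest p among groups that do not overlap, the top 10%, and genes whose probe sets differ in sign by over 1. The brightest probe set stands for a gene. Alternatives were other scales, pseudocounts of 1 and 100, other filters, no trend, a number-format term, each array left out, and the mean of a gene's probe sets. With an array left out, the normalisation and the filter were redone. Figures used matplotlib 3.10.9 in Python 3.11.15.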

Additional observations from a re-analysis of the deposited data

How the results depend on the processing

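No paired analysis was possible because J and NJ share 1 replicate label only, 1a. limma called 0 Slc probe sets under all 12 alternatives. Over all probe sets it called 8 with the number-format term and 0 to 4 when 1 array was dropped, the 4 without J 1a. The Slc median of −0.066 was 0.015 with the filter at the median. It lay between −0.13 (without NJ 1d) and 0.019 (without J 1c) when 1 array was dropped and the filter redone. Single genes changed sign as follows, and the cause was not tested. Slc25a4 was −0.29 on the scale of the deposited values and −0.35 with median centring, and Slc39a4 was −0.029 with median centring. When 1 array was dropped the ranges were −0.31 to 0.40 for Slc25a5, −0.32 to 1.06 for Slc4a1, −0.33 to 1.6 for Slc16a1, −0.84 to 0.43 for Slc20a1, −0.35 to 1.99 for Slc7a5, −0.83 to 0.21 for Slc25a11, −0.99 to 0.25 for Slc29a1, −0.14 to 0.95 for Slc2a3, −1.0 to 0.59 for Slc1a5, −0.79 to 0.19 for Slc30a1, −0.24 to 0.73 for Slc38a2, −1.45 to 0.67 for Slc25a17, −0.96 to 0.39 for Slc12a2, −3.38 to 0.59 for Slc8a1, −0.73 to 0.89 for Slc39a4, −0.71 to 1.14 for Slc23a3 and −1.17 to 0.14 for Slc6a2. Of the genes singled out later, Slc35b2 ranged from −0.17 to 1.96, Slc5a6 from −1.22 to 0.45 and Slc6a4 from −1.62 to 1.34. The 49 tested probe sets that the naming rule took all kept their sign with pseudocount 1. With no filter, no intensity trend or the number-format term the sign of a difference cannot change, so these settings do not bear on it.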
